A study of Mus musculus with 7 samples.

Results

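The small leucine-rich proteoglycans (SLRPs) are secreted matrix proteins with a core of leucine-rich repeats, and 9 of their genes were followed here: Dcn, Lum, Bgn, Fmod, Ogn, Omd, Aspn, Prelp and Podn. They were looked up by gene symbol, and all 9 were found among the 21878 genes of the count table. Of these, 8 had enough counts to be tested. Omd did not.

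SLRPs bind fibrillar collagen in the space around fibroblasts and set how collagen fibrils assemble and how thick they grow. Many carry chondroitin, dermatan or keratan sulfate chains, and decorin and biglycan also bind TGF-beta and cell surface receptors. In skin and other connective tissue they are made mainly by fibroblasts, so their transcripts serve in bulk tumour RNA as a readout of stroma.

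Tumours were grown from B16F10, a mouse melanoma line that makes pigment, in female C57BL/6J hosts until they could be felt, and the hosts were then randomized. The study set 3 control libraries (NC) against 4 libraries from mice dosed orally with Zelnorm (columns lettered MBZ), 1.25 mg/kg once in 2 days. Zelnorm is a trade name of tegaserod, an agonist of the serotonin 5-HT4 receptor. The labels say neither what the NC mice were given nor what the letters MBZ stand for. They also do not tie libraries to separate animals, so p-values measure only the spread between these libraries. Every library is a mixture of graft and host cells, and the counts do not tell which cells a transcript came from. In such bulk samples fewer cells of a type and less RNA per cell cannot be told apart.

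Library totals ran from 16903598 to 19666598 counts, so that 3 counts, used as the floor of detection, equalled 0.152 to 0.178 CPM (the count scaled by the TMM-adjusted library size). Melanocyte markers summed to 26066 to 30480 CPM, with none at 0. NC_10 stood apart from the other controls in stromal transcripts. All 8 tested SLRP genes had their highest NC value in NC_10, whereas 32.4% of all tested genes did. The difference between NC_10 and the mean of NC_5 and NC_6 was 0.69 to 1.37 on the log2 scale for these 8 genes, against a median of -0.0037 over all tested genes. Skeletal muscle markers summed to 6.42 to 46.8 CPM in NC and 7.93 to 399.8 CPM in Zelnorm libraries, with the most in MBZ_15, MBZ_11 and NC_5. For each member the values without NC_10, without another library that moves it most, and without those 3 libraries stand beside the value from all libraries. NC_10 was singled out because these genes were high in it, so that leaving it out raises their differences by construction. NC_5, MBZ_11 and MBZ_15 were picked by their muscle markers, but leaving them out can lower a difference by construction too. NC_5 was the lowest library for Dcn, Bgn, Ogn and Aspn, and NC_6 and NC_10 then remain as the only controls.

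The genes lie in short runs of related genes, with positions from RefSeq on GRCm38.p6. Dcn (chr10:97479500-97518163) and Lum (chr10:97565501-97572703) are followed by Kera and Epyc, cornea and cartilage members of the family that had 0 counts and at most 1 count. Aspn (chr13:49544443-49567565), Omd (chr13:49582462-49592612) and Ogn (chr13:49608015-49624501) follow each other on the plus strand, after Ecm2. Prelp (chr1:133910304-133930102) and Fmod (chr1:134037254-134048280) are neighbours as well, while Podn (chr4:108014793-108031954) and Bgn (chrX:73483601-73495936) stand alone. Aspn, Omd and Ogn overlap the body of Cenpp on the other strand but share no exon with it in GENCODE M21. In that annotation Prelp shares 350 exon bases with the antisense gene Gm15851, so part of its count is uncertain if strand was not used in counting.

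The promoters of the run on chromosome 13 are shown because these adjacent genes differed in level, and that of Bgn because it had the most transcripts. Each is 300 bases, 250 before and 50 after the RefSeq start on the plus strand of GRCm38.p6, with motif matches on either strand in capitals. The motifs searched were TATAAA, the core of a TATA box, then GGGCGG, a GC box, and lastly CAGAC, a Smad box.
Aspn chr13:49544193-49544492: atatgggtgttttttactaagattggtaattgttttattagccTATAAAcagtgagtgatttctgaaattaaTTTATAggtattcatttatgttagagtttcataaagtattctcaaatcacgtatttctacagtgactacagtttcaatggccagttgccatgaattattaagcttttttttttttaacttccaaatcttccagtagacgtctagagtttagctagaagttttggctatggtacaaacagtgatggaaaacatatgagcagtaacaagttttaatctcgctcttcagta
Omd chr13:49582212-49582511: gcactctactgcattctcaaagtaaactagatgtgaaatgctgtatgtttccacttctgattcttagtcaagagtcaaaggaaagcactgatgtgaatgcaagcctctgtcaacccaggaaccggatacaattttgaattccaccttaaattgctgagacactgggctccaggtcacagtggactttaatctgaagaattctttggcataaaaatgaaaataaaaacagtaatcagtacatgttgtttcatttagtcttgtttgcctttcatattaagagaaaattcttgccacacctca
Ogn chr13:49607765-49608064: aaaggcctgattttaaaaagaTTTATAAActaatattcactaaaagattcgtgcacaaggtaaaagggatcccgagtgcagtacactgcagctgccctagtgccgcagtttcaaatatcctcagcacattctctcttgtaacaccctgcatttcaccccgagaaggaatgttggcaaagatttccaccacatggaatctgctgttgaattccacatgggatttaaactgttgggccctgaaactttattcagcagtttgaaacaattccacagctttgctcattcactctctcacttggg
Bgn chrX:73483351-73483650: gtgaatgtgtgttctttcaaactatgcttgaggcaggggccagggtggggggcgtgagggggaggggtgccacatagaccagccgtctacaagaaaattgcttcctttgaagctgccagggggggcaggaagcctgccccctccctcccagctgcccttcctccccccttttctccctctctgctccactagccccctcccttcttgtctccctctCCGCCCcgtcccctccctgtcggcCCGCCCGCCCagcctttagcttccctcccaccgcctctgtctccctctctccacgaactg
TATAAA was matched at 2 positions in Aspn and at 2 overlapping positions in Ogn, and 13.6% of all RefSeq promoters of this length held it. These matches lay in the early part of each window, far before the RefSeq start. The Omd window held none of the 3 motifs. Bgn held GGGCGG at 3 positions, of which a pair overlapped, and 35.7% of all promoters held that motif. CAGAC was matched in none of these 4 windows and in 49.6% of all promoters. Among the members' windows not shown, it was matched at 2 positions in Fmod, at 3 in Prelp and at 1 in a window of Podn. Of the 9 genes 7 were matched in the promoter table. The GC content was 31.0% for Aspn, 37.7% for Omd, 42.3% for Ogn and 63.7% for Bgn, against a median of 52.7% over all promoters. The matches describe letters only.

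Levels were compared between genes per length, as CPM per kilobase of exon. Bgn led with 53.6 CPM per kilobase on average over the 7 libraries, and its range of 31.6 to 65.2 lay above that of every other member. Dcn followed with 3.88 to 13.2, overlapping Prelp with 3.71 to 7.02 CPM per kilobase. Lum (1.48 to 3.42 CPM per kilobase) lay below both and overlapped Aspn (0.989 to 3.80), which in turn overlapped Ogn (0.570 to 1.80). Podn (0.483 to 1.39 CPM per kilobase) and Fmod (0.285 to 1.04) were lowest among the tested members, and their ranges overlapped. The order of these means was the same with the longest transcript in place of all exons as the length.

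**Figure D1:**
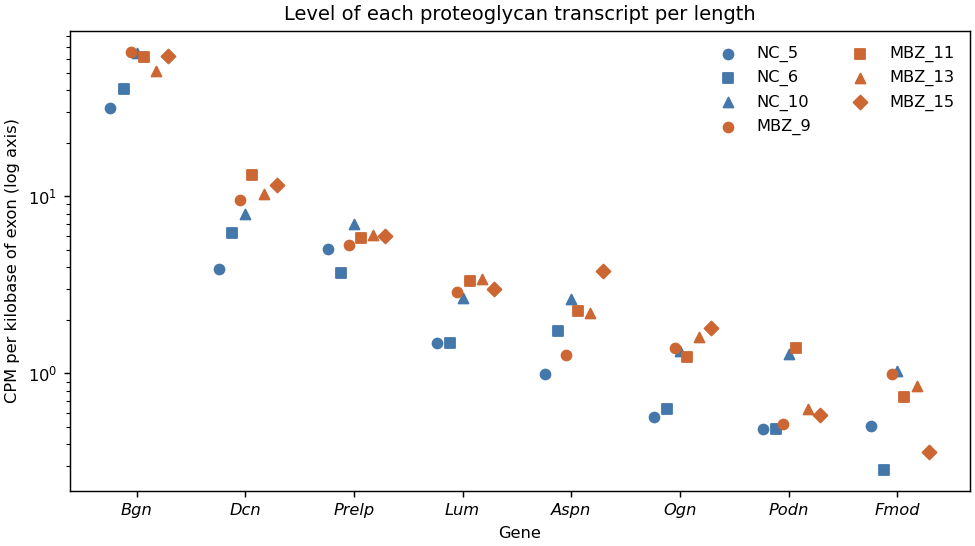
Level of the 8 tested proteoglycan genes (x axis) in each library as CPM per kilobase of exon (log y axis), NC libraries in blue and Zelnorm libraries in orange. Bgn lies between 31.6 and 65.2 in all 7 libraries, above the other genes, and Fmod and Podn lie lowest.

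Biglycan, decorin and asporin form class I of the family. Dcn encodes decorin, which binds collagen and TGF-beta. Dcn had 7.53, 12.1 and 15.5 CPM in NC_5, NC_6 and NC_10, and 18.4, 25.6, 19.97 and 22.5 CPM in MBZ_9, MBZ_11, MBZ_13 and MBZ_15. All Zelnorm values lay above all NC values, with NC_10 closest to the Zelnorm range. The group means were 11.7 ± 3.99 CPM (SD, n = 3) and 21.6 ± 3.13 CPM (SD, n = 4). The log2 fold change of Dcn was 0.88 ± 0.21 (SE), the 117th smallest p of 12997 (unadjusted p = 0.00149, edgeR adjusted p = 0.163). It therefore did not pass the threshold of 0.05 in edgeR, whereas DESeq2 on the same libraries called Dcn (0.88 ± 0.20, DESeq2 adjusted p = 0.00286). Without NC_10 it was 1.14 ± 0.19 (edgeR adjusted p = 0.0245), and without NC_5 it was 0.65 ± 0.16 (edgeR adjusted p = 0.355). Without NC_5, MBZ_11 and MBZ_15 the value was 0.47 ± 0.16 (edgeR adjusted p = 0.999). That subset lacks the control lowest in Dcn and the Zelnorm libraries highest in it.

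Bgn encodes biglycan, a relative of decorin that binds collagen and also Toll-like receptors. Bgn had 76.3, 97.5 and 156 CPM in NC_5, NC_6 and NC_10, and 158, 148, 123 and 149 CPM in MBZ_9, MBZ_11, MBZ_13 and MBZ_15. Both lowest values were controls, but NC_10 lay above all Zelnorm libraries except MBZ_9, so the groups overlapped. The means were 110 ± 41.3 CPM (SD, n = 3) and 145 ± 14.9 CPM (SD, n = 4), and the log2 fold change was 0.39 ± 0.20 (SE, edgeR adjusted p = 0.532). Leaving out 1 control moved it to either side, to 0.73 ± 0.12 without NC_10 (edgeR adjusted p = 0.0211) and to 0.19 ± 0.17 without NC_5 (edgeR adjusted p = 0.871). Without NC_5, MBZ_11 and MBZ_15 it was 0.14 ± 0.22 (edgeR adjusted p = 0.999).

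Aspn encodes asporin, a collagen-binding member that bears a run of aspartate residues and inhibits TGF-beta. Aspn had 2.33, 4.06 and 6.17 CPM in NC_5, NC_6 and NC_10, and 2.99, 5.27, 5.17 and 8.94 CPM in MBZ_9, MBZ_11, MBZ_13 and MBZ_15. The groups overlapped, with MBZ_9 below 2 of the controls and MBZ_15 highest of all. The fold change was 0.42 ± 0.38 on the log2 scale (SE, edgeR adjusted p = 0.769). Its sign turned without NC_5, MBZ_11 and MBZ_15, at -0.33 ± 0.36 (SE, edgeR adjusted p = 0.999), and it was 0.13 without NC_5 alone, 0.09 without MBZ_15 alone and 0.81 without NC_10.

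**Figure D2:**
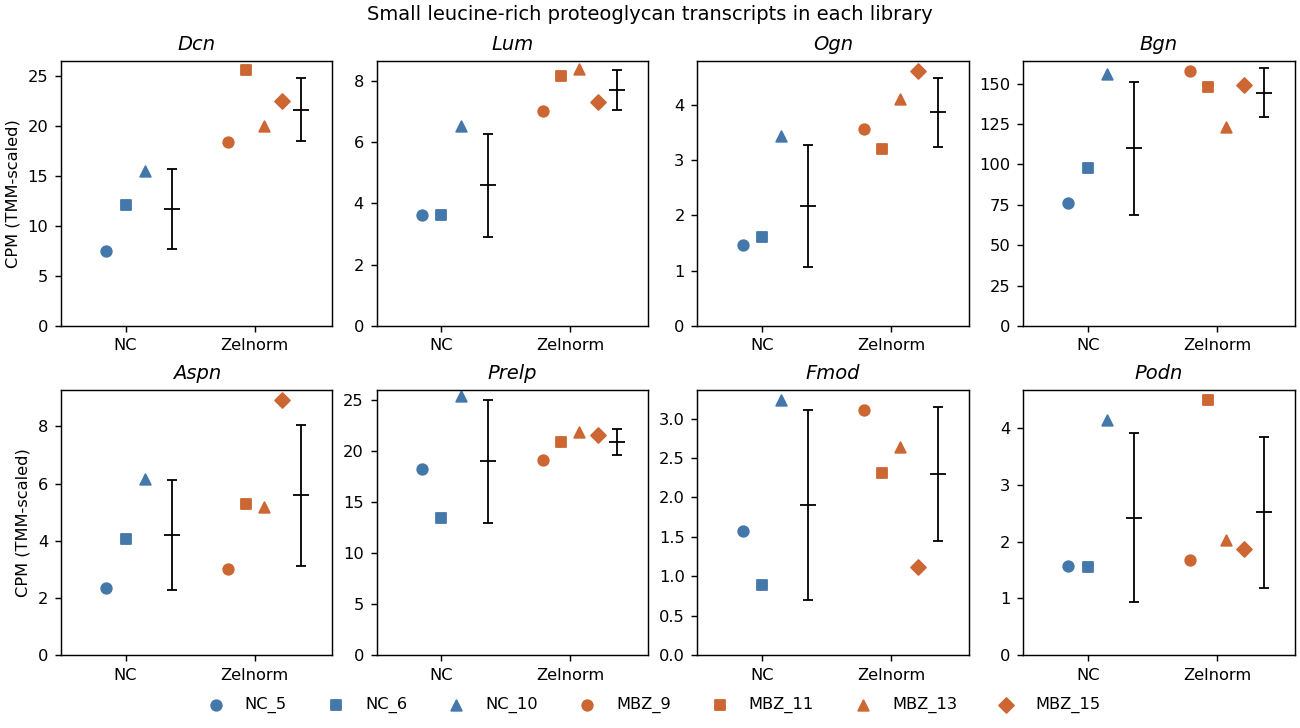
CPM of the 8 tested proteoglycan genes (1 panel each, y axis from 0) in the 3 NC libraries (blue) and the 4 Zelnorm libraries (orange), with the mean and SD of each group as black bars. For Dcn and Lum all Zelnorm points lie above all NC points, and NC_10 (blue triangle) is the highest control in every panel.

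Lumican, fibromodulin, prolargin and osteomodulin form class II, whose members can bear keratan sulfate. Lum encodes lumican, known from cornea and skin collagen. Lum had 3.63, 3.62 and 6.52 CPM in NC_5, NC_6 and NC_10, and 7.02, 8.17, 8.38 and 7.31 CPM in MBZ_9, MBZ_11, MBZ_13 and MBZ_15. The groups did not overlap, but NC_10 lay nearer to the Zelnorm libraries than to the other controls. The means were 4.59 ± 1.67 CPM (SD, n = 3) and 7.72 ± 0.659 CPM (SD, n = 4). The log2 fold change was 0.74 ± 0.22 (SE, unadjusted p = 0.0063, edgeR adjusted p = 0.268, DESeq2 adjusted p = 0.0776). Without NC_10 it was 1.09 ± 0.18 (edgeR adjusted p = 0.0236), without NC_6 it was 0.59 ± 0.23 (edgeR adjusted p = 0.421), and without NC_5, MBZ_11 and MBZ_15 it was 0.59 ± 0.31 (edgeR adjusted p = 0.999).

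Prelp encodes prolargin, a basic protein that links collagen to heparan sulfate of basement membranes. Prelp had 18.2, 13.4 and 25.4 CPM in NC_5, NC_6 and NC_10, and 19.1, 20.9, 21.9 and 21.6 CPM in MBZ_9, MBZ_11, MBZ_13 and MBZ_15. The 4 Zelnorm libraries fell within the range of the controls. On the log2 scale the fold change was 0.13 ± 0.17 (SE, edgeR adjusted p = 0.848), and it was 0.39 without NC_10, -0.07 without NC_6 and 0.07 without NC_5, MBZ_11 and MBZ_15.

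Fmod encodes fibromodulin, which competes with lumican for collagen sites. Fmod was sparse, with 29, 16 and 64 counts in NC_5, NC_6 and NC_10 and 54, 39, 47 and 22 counts in MBZ_9, MBZ_11, MBZ_13 and MBZ_15. That was 0.891 to 3.23 CPM in NC and 1.12 to 3.11 CPM in Zelnorm libraries, with NC_10 highest and MBZ_15 among the low libraries. The log2 fold change was 0.26 ± 0.45 (SE, edgeR adjusted p = 0.892). It was 0.88 without NC_10, 0.07 without MBZ_9, -0.08 without NC_6 and 0.46 without NC_5, MBZ_11 and MBZ_15. Omd, which encodes osteomodulin of bone matrix, had 0, 2 and 3 counts in NC_5, NC_6 and NC_10. It had 4 counts in MBZ_9 and 0 in the other Zelnorm libraries, so no difference was detectable at this depth. Only NC_10 and MBZ_9 reached the floor of 3 counts.

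Ogn encodes osteoglycin (mimecan), of class III, and Podn encodes podocan, of class V. Ogn had 1.46, 1.61 and 3.44 CPM in NC_5, NC_6 and NC_10, and 3.57, 3.20, 4.11 and 4.62 CPM in MBZ_9, MBZ_11, MBZ_13 and MBZ_15. NC_10 lay above MBZ_11 and below the other Zelnorm libraries, so the overlap rested on that pair. The log2 fold change of Ogn was 0.83 ± 0.31 (SE, unadjusted p = 0.0238, edgeR adjusted p = 0.394), and 1.33 ± 0.27 without NC_10 (edgeR adjusted p = 0.0464). Its unadjusted p was above 0.05 without NC_5 (0.61 ± 0.33, edgeR unadjusted p = 0.0941), without NC_6 (0.65 ± 0.35, edgeR unadjusted p = 0.0932) and without MBZ_15 (0.73 ± 0.34, edgeR unadjusted p = 0.0605). It was also above 0.05 without NC_5, MBZ_11 and MBZ_15 (0.59 ± 0.41, edgeR unadjusted p = 0.194). Podn had 1.57, 1.56 and 4.14 CPM in NC_5, NC_6 and NC_10, and 1.67, 4.50, 2.02 and 1.88 CPM in MBZ_9, MBZ_11, MBZ_13 and MBZ_15. A single high library in each group, NC_10 and MBZ_11, set its means. For Podn the difference was 0.04 ± 0.45 on the log2 scale (SE, edgeR adjusted p = 0.983), 0.67 without NC_10, -0.39 without MBZ_11 and -0.64 without NC_5, MBZ_11 and MBZ_15.

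Over the family, 0 of 8 tested members passed the adjusted threshold in edgeR, where 0.0308% of all tested genes did. At an unadjusted p under 0.05, 3 members were higher (Dcn, Lum and Ogn), where 6.94% of all tested genes were. For Dcn and Lum all Zelnorm values exceeded all NC values, which held for 5.33% of all tested genes. All 8 fold changes were above 0, as were 50.2% over all tested genes, and their median was 0.41 against 0.00036 for all tested genes. DESeq2 called 1 member, Dcn, where 1.42% of its genes were called higher, and limma voom called 0.

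The counts depended on which control was left out. Without NC_5, 0 members passed the adjusted threshold in edgeR, as did 0 of all tested genes. At an unadjusted p under 0.05, 2 members were higher, where 5.08% of all tested genes were. In that subset 7 of 8 fold changes were above 0 and the median was 0.16. Without NC_6, 0 members passed, where 5 of all tested genes did, and 2 were higher at an unadjusted p under 0.05, where 6.01% were. Of the 8 fold changes 5 were above 0 and the median was 0.35. Without NC_10, the control removed for its high values of these same genes, 4 members passed the adjusted threshold in edgeR, Dcn, Lum, Bgn and Ogn, where 1.19% of all tested genes were called higher, and 6 members lay above both remaining controls in all Zelnorm libraries, where 11.3% of all tested genes did. At an unadjusted p under 0.05, 5 members were higher, where 8.29% of all tested genes were, and the median was 0.85. Against NC_10 itself, the mean of the Zelnorm libraries was higher for 3 members (Dcn by 0.47, Lum by 0.24 and Ogn by 0.15 on the log2 scale) and lower for the other 5. Without NC_5, MBZ_11 and MBZ_15, leaving 2 libraries a group, 6 of 8 fold changes were above 0, with a median of 0.30. In that subset 1 member, Dcn, had an unadjusted p under 0.05 (background 2.92%), and 3 members had no overlap (background 16.3%).

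**Figure D3:**
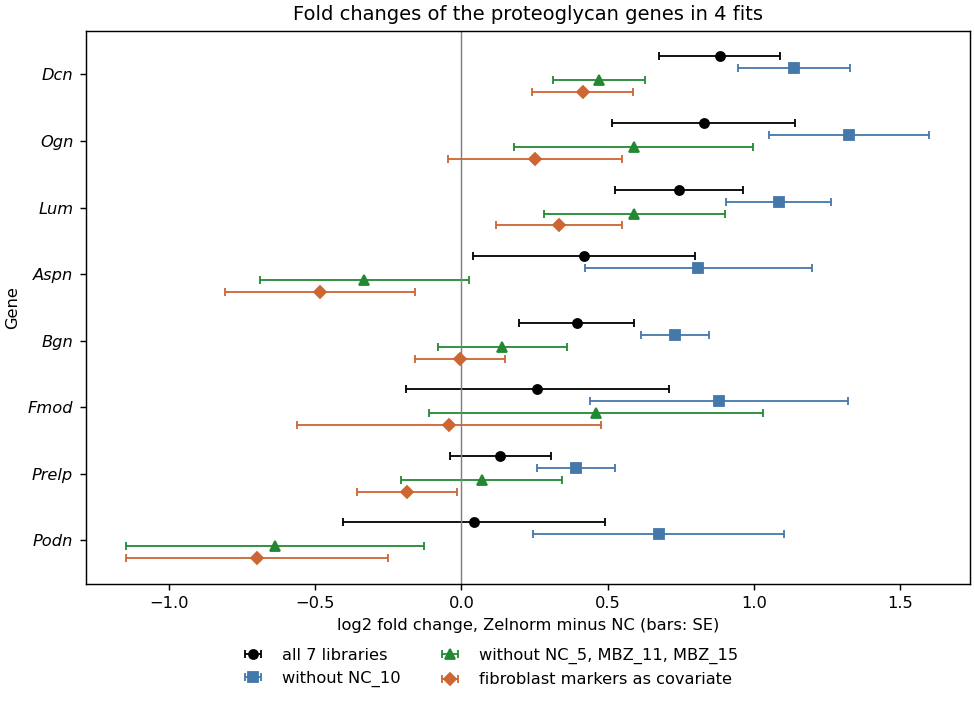
Log2 fold change of each tested proteoglycan gene, Zelnorm minus NC (x axis, bars are the SE), in fits with all 7 libraries, without NC_10, without NC_5, MBZ_11 and MBZ_15, and with the mean fibroblast marker level as a covariate. Dcn, Ogn and Lum lie above 0 in all 4 fits, while Aspn and Podn lie below 0 in 2 fits and Bgn, Fmod and Prelp in 1, the fit with the fibroblast covariate.

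The members varied between libraries more than most genes and largely in step. The SD of log2 CPM within groups was 0.30 (Prelp) to 0.73 (Fmod), against a median of 0.13 over all tested genes. This comparison was not matched for level, and the low counts of Fmod, Podn and Ogn and the high values of NC_10 enter these SDs. Of 28 pairs of members, 27 had a positive Pearson correlation of log2 CPM over the 7 libraries, with a median of 0.61. Lum and Ogn were the closest pair at 0.94, and Fmod and Aspn the only pair below 0 at -0.09. These correlations share library depth and scaling and are given as descriptions. With group means removed, 27 pairs were again positive, with a median of 0.64. NC_10, the highest control for every tested member, remained in these values and moves each pair towards a positive correlation. Pairs were not correlated without NC_10, and pairs of other genes were not compared. Bgn held 65.7% to 73.8% of the summed SLRP CPM in every library, Dcn 6.68% to 11.7% and Prelp 8.93% to 16.2%.

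By the rule of the highest Pearson correlation of log2 CPM among 11125 genes over 7 libraries, the genes most like Dcn were Xdh (0.98), Dnajb4 (0.98) and Olfml2b (0.97). Those most like Lum were Slc8a1 (0.99), Nbl1 (0.99) and Kmt2d (0.99), and those most like Bgn were Ccr7, Tagln2 and Tmsb4x (each 0.97). Ogn was closest to Tgfbr2 (0.98), which encodes a TGF-beta receptor, and to Zcchc6 and Zfp971 (each 0.97). Aspn was closest to Sparc (0.97), a collagen-binding matrix gene, to Dse (0.97), an enzyme of dermatan sulfate synthesis, and to Arsi (0.97). Prelp was closest to Cyp2u1 (0.98), Cd163 (0.97) and Hfe (0.97). Fmod was closest to Id3 (0.996), Crebl2 (0.98) and Med9 (0.97), and Podn to Prkcdbp, Nsmce2 (each 0.95) and Rab3il1 (0.94). These neighbours were selected as the highest of 11125 values on 7 points that share depth and scaling.

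As a readout of fibroblasts, the SLRPs were set beside 15 fibroblast markers that include none of them. All 15 were detected in every library and had fold changes above 0, with a median of 0.56. None passed the adjusted threshold in edgeR, and 7 were higher at an unadjusted p under 0.05, where 6.94% of all tested genes were. The marker median was 0.99 without NC_10 and 0.20 without NC_5, MBZ_11 and MBZ_15. The summed markers stood at 1038, 1136 and 2152 CPM in NC_5, NC_6 and NC_10. They were at 1620, 1915, 1916 and 2839 CPM in MBZ_9, MBZ_11, MBZ_13 and MBZ_15. NC_10 was again the high control, and NC_5 and NC_6 were the lowest of the 7 libraries. The summed SLRP CPM was 10.3% to 11.9% of the summed marker CPM in NC libraries and 7.66% to 13.2% in Zelnorm libraries, so the ratio overlapped between groups. Bgn held 65.7% to 73.8% of the SLRP sum, so this ratio says little about Dcn, Lum or Ogn.

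Markers named here were chosen after their values were seen. Pi16 and Clec3b, genes of adventitial fibroblasts, had log2 fold changes of 1.39 ± 0.39 and 1.30 ± 0.38 (SE, edgeR adjusted p = 0.243 and 0.254). Fap, a gene of activated fibroblasts, had 0.01 ± 0.43 (SE, edgeR adjusted p = 0.997), and Pdgfra, a general fibroblast receptor, 0.36 ± 0.34 (SE, edgeR adjusted p = 0.786). When the mean log2 CPM of the 15 markers was added to the fit as a covariate (an alternative added once the data had been seen), the SLRP median was -0.02. Dcn then stood at 0.41 ± 0.17 (SE, unadjusted p = 0.035, edgeR adjusted p = 0.523), Lum at 0.34 ± 0.22 and Ogn at 0.25 ± 0.30 (SE). Bgn was at -0.0043 ± 0.15, Aspn at -0.48 ± 0.33 and Podn at -0.70 ± 0.45 (SE). In that fit 1 of 8 members had an unadjusted p under 0.05 and was higher, where 5.08% of all tested genes were. The covariate itself differed between groups. It was 4.08, 4.37 and 5.14 in NC_5, NC_6 and NC_10, and 4.88, 5.22, 5.13 and 5.37 in MBZ_9, MBZ_11, MBZ_13 and MBZ_15. The fit therefore cannot cleanly separate a group difference from a difference in marker level, and the cause was not tested.

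Collagens that form or coat the fibrils SLRPs bind were lowest in NC_5 and NC_6 too. The list shares Col1a1, Col1a2 and Col3a1 with the fibroblast markers, and in NC_10 these 3 genes, at 636, 466 and 606 CPM, made up most of both sums. The summed CPM of the collagens was 958, 1081 and 2341 in NC_5, NC_6 and NC_10, and 1622, 1950, 1952 and 3053 in MBZ_9, MBZ_11, MBZ_13 and MBZ_15. Of 12 genes, 11 had fold changes above 0 with a median of 0.45, and 0 passed the adjusted threshold in edgeR. Col14a1, a fibril-associated collagen, was the 1 gene at an unadjusted p under 0.05 (log2 fold change 0.81 ± 0.29 SE, edgeR adjusted p = 0.364). At that threshold 6.94% of all tested genes were higher. Col3a1 and Col5a1, both of fibrils, had 0.74 ± 0.34 and 0.52 ± 0.25 (SE). Without NC_10 the collagen median was 0.95, and without NC_5, MBZ_11 and MBZ_15 it was -0.0030.

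**Figure D4:**
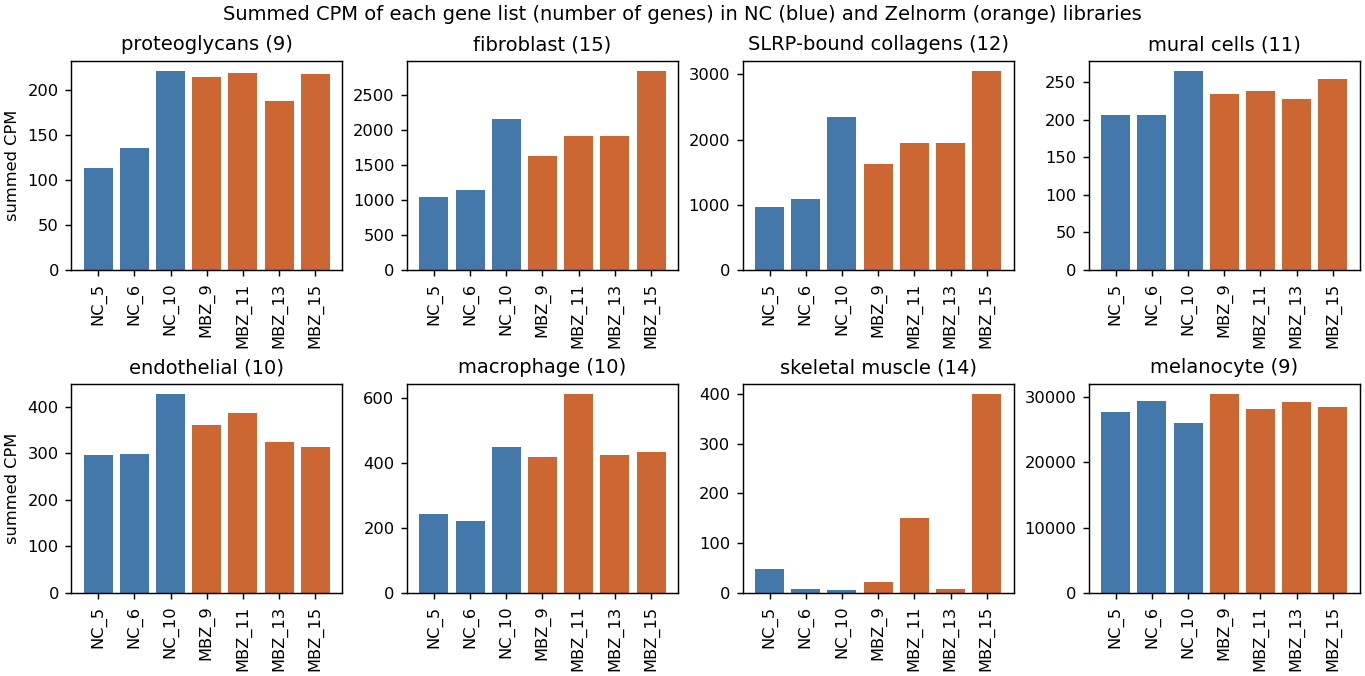
Summed CPM (y axes from 0, different scales) of the proteoglycans and of 7 other gene lists in each library, NC in blue and Zelnorm in orange, with the number of genes in brackets. Proteoglycan, fibroblast and collagen sums are lowest in NC_5 and NC_6, while skeletal muscle markers are highest in MBZ_15 at 399.8 CPM.

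The list of elastic fibre genes and further SLRP partners (Tnxb and Wisp1) gave 6 of 9 fold changes above 0 and a median of 0.49. Fbn2 (-0.15 ± 0.46), Mfap2 (-0.07 ± 0.36) and Fbln5 (-0.07 ± 0.06, SE) were below 0. Tnxb, which encodes the matrix glycoprotein tenascin-X, was higher in each Zelnorm library than in any NC library (log2 fold change 1.06 ± 0.23 SE, edgeR adjusted p = 0.152). Mfap5 had the same separation (0.81 ± 0.24 SE, edgeR adjusted p = 0.282), which held for 5.33% of all tested genes. Fbn1, fibrillin-1, had 0.74 ± 0.23 (SE, edgeR adjusted p = 0.3). Of 9 activated fibroblast genes 7 were above 0, with a median of 0.56, and the 3 with the smallest p were Tnc (0.69 ± 0.22), Fn1 (0.56 ± 0.20) and Acta2 (0.35 ± 0.17, SE). No member of either list passed the adjusted threshold in edgeR. At an unadjusted p under 0.05, 3 genes of the elastic fibre list and 2 activated fibroblast genes were higher, against 6.94% of all tested genes. The activated fibroblast median was 0.93 without NC_10 and 0.0087 without NC_5, MBZ_11 and MBZ_15. The elastic fibre median was 0.82 and 0.35 in the same subsets, and Mfap5 is also a fibroblast marker here.

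Enzymes that build the sugar chains of SLRPs differed in both directions, with medians near 0 for chondroitin and dermatan sulfate and slightly above 0 for keratan sulfate. Of 23 tested genes of chondroitin and dermatan sulfate synthesis, 10 had fold changes above and 13 below 0, with a median of -0.0087. At an unadjusted p under 0.05, 0 were higher and 2 were lower, where 3.38% of all tested genes were lower. These were Papss1, which makes the sulfate donor (log2 fold change -0.18 ± 0.06 SE, edgeR adjusted p = 0.334), and the sulfotransferase gene Chst12 (-0.20 ± 0.09 SE, edgeR adjusted p = 0.471). Both were lower in each Zelnorm library than in any control, where 4.27% of all tested genes were. Dsel, a dermatan sulfate epimerase, had 0.21 ± 0.12 (SE). Of 7 genes of keratan sulfate synthesis 6 were above 0, with a median of 0.10 that was -0.0087 without NC_5, MBZ_11 and MBZ_15. The sialyltransferase gene St3gal1 (0.30 ± 0.07 SE, edgeR adjusted p = 0.152) was higher in each Zelnorm library than in any control, where 5.33% of all tested genes were. It was the 1 gene at an unadjusted p under 0.05, where 6.94% of all tested genes were higher. The genes St3gal2 (0.10 ± 0.07) and B4galt1 (0.06 ± 0.08, SE) came next.

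Proteases that cut SLRPs or mature their partners had a median of 0.12, with 10 of 11 above 0. Mmp2, a gelatinase of stroma (0.51 ± 0.20), and Gzmb, a granule protease of lymphocytes (1.06 ± 0.47), were the 2 genes higher at an unadjusted p under 0.05, where 6.94% of all tested genes were, and Pcolce, an enhancer of procollagen processing, had 0.12 ± 0.11 (SE). Among receptors and ligands of SLRPs, 16 of 18 were above 0, with a median of 0.20, and 7 were higher at an unadjusted p under 0.05, against the same 6.94% of all tested genes. C1qc, a subunit of complement C1q, which SLRPs bind, was higher in each Zelnorm library than in any control (0.72 ± 0.19 SE, edgeR adjusted p = 0.214). So were Tgfb3 (0.30 ± 0.09 SE, edgeR adjusted p = 0.268) and Tlr2, a receptor of biglycan (0.82 ± 0.25 SE, edgeR adjusted p = 0.285). Igf1r showed it too (0.11 ± 0.06 SE, edgeR adjusted p = 0.612). This separation thus held for 4 of 18 genes of the list, and for 5.33% of all tested genes. The other biglycan receptor gene Tlr4 had -0.07 ± 0.07, and Tgfb1 0.0044 ± 0.10 (SE). In both lists 0 genes passed the adjusted threshold in edgeR.

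Of 9 further SLRP family genes, 4 were tested, with 2 fold changes above and 2 below 0. Chadl, which encodes a chondroadherin-like protein, had every Zelnorm library below every NC library, where 4.27% of all tested genes did. Its means were 12.1 CPM in NC and 9.14 CPM in Zelnorm libraries (log2 fold change -0.41 ± 0.11 SE, edgeR adjusted p = 0.234). Tsku, tsukushi, had 0.32 ± 0.20, Ecm2, next to Aspn, had -0.10 ± 0.27, and Optc, opticin, had 0.06 ± 0.66 (SE) on 1 to 13 counts. The untested genes were Podnl1, with at most 9 counts, and Kera, Epyc, Chad and Nyx, with at most 4.

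Markers of other cells that make SLRPs, or that lie near a graft, were measured beside them, and their part in the SLRP differences was not tested. Tendon and cartilage markers had 4 of 11 genes tested, all above 0, and summed to 22.3 to 32.2 CPM in NC and 28.8 to 42.7 CPM in Zelnorm libraries. Of their defining genes Tnmd was at 0 in all libraries and Acan had at most 3 counts. Bone markers had 2 of 6 genes tested, both above 0, and summed to 1.34 to 3.03 and 2.70 to 4.14 CPM, with Ibsp at 0 in all libraries. Smooth muscle and pericyte markers had 8 of 11 above 0, a median of 0.23 and sums of 207 to 265 CPM in NC and 227 to 255 CPM in Zelnorm libraries. Endothelial markers were even, with 5 of 10 above 0, a median of -0.01 and sums of 296 to 427 and 314 to 387 CPM, highest in NC_10.

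Leukocyte markers had 10 of 10 above 0, a median of 0.71 and sums of 495 to 577 CPM in NC and 542 to 763 CPM in Zelnorm libraries. Macrophage markers had 10 of 10 above 0, a median of 0.68 and sums of 221 to 449.5 and 417 to 613 CPM, and NC_10 was their highest control as well. The macrophage median was 1.03 without NC_10 and 0.38 without NC_5, MBZ_11 and MBZ_15. Skeletal muscle markers had 12 of 14 genes tested and all 12 above 0, with a median of 2.90 that was 1.59 without MBZ_15 and 5.77 without NC_5. Adipocyte markers had 8 of 9 above 0, with sums of 75.4 to 174 CPM in NC and 55.7 to 401 CPM in Zelnorm libraries. Keratinocyte markers summed to at most 1.42 CPM in NC and to 0 to 17.3 CPM in Zelnorm libraries, with Flg and Dsg1a at 0 outside MBZ_11. Schwann cell markers had 1 of 6 above 0 and sums of 242 to 254 and 218 to 271 CPM, with Foxd3 at 0 throughout. Melanocyte markers had 6 of 9 above 0 and a median of 0.04. At an unadjusted p under 0.05, 8 leukocyte, 7 macrophage and 7 skeletal muscle markers were higher, where 6.94% of all tested genes were. The Schwann cell and melanocyte lists had 1 such gene each, and the adipocyte and keratinocyte lists 0. None of these lists had a gene past the adjusted threshold in edgeR.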

How the data were processed

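The values the authors deposited are unnormalized counts of reads per gene, in 1 table of 7 libraries made with the TruSeq Stranded mRNA kit, per the labels' protocols. The submitters' processing notes name Trimmomatic, HISAT2, Cufflinks, HTSeq and DESeq and the builds GRCm38 and GRCh38. For versions, strand setting and annotation the entry is: not given in the sources used here. Columns name the group of a library but not its replicate number. The chi-square per degree of freedom between libraries was at least 6.53, so none was a copy.

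Genes kept by filterByExpr (12997) were scaled by TMM and compared with edgeR 4.0.16 (quasi-likelihood test, Benjamini-Hochberg, threshold 0.05) in R 4.3.3. The SE came from the F statistic. Log2 CPM used a prior count of 2. Alternatives were other scalings and filters, DESeq2 1.42.0, limma voom 3.58.1, a robust fit, covariates and left-out libraries. Exon lengths came from GENCODE M21 and promoters from RefSeq (GRCm38.p6). On simulated counts for Zelnorm against NC over 12997 genes, 98.0% of 200 genes changed by 1 on the log2 scale were recovered, with 11 false calls. The simulation gave every gene the same dispersion, held no deviating library and changed only genes with a mean above 1 CPM. The SLRP genes varied more between libraries than most genes, so this share does not give the power for them. The members and lists were chosen with earlier results of these data known. Genes named from each pathway list are up to 3 with the smallest p, unless stated. Figures used matplotlib 3.10.9. The detection floor reflects counting error alone, and the SD and SE hold the variation between libraries.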

Additional observations from a re-analysis of the deposited data

Results flagged for a closer look

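Among the 4 Zelnorm libraries, 29 sets of values (9 genes and 20 list sums) were searched for a library whose gap to its nearest neighbour exceeded Dixon's 95% limit for 4 values, and 5 were found, where chance gives about 1 in 20. Podn was at 4.50 CPM in MBZ_11, far above the other Zelnorm libraries. Omd was at 0.230 CPM in MBZ_9, which is 4 counts against 0 in the other Zelnorm libraries. The summed activated fibroblast genes stood at 619.6 CPM in MBZ_15. In MBZ_11 the summed macrophage markers stood at 613 CPM and the summed keratinocyte markers at 17.3 CPM. The NC group, with 3 libraries, was not searched.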

How the results depend on the processing

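Scaling (RLE, upper quartile, none), filters, the robust fit, limma voom and DESeq2 left all 8 SLRP fold changes above 0, with a median between 0.398 and 0.44. Of all genes, 4 were called in edgeR, 34 with no filter beyond 1 count, 21 in the robust fit, 206 by DESeq2 and 126 with the fibroblast covariate. Without NC_5, MBZ_11 and MBZ_15 edgeR called 0 (559 at an unadjusted p under 0.05). With each library left out in turn the count ran from 0 (without NC_5, with 970 at an unadjusted p under 0.05) to 159 (without NC_10), and it was 9 without MBZ_13 and 22 without MBZ_15. Over the same subsets, 2 to 6 members had every Zelnorm library above every control, where 6.96% (without MBZ_11) to 11.3% (without NC_10) of all tested genes did. At an unadjusted p under 0.05, 2 to 5 members were higher, where 4.91% (without MBZ_11) to 8.29% (without NC_10) of all tested genes were. The SLRP median ran from 0.16 (without NC_5) to 0.85 (without NC_10). The members at an unadjusted p under 0.05 numbered 1 without NC_5, MBZ_11 and MBZ_15 (2.92% of all tested genes higher). They numbered 1 with the fibroblast covariate (5.08% of all tested genes higher), where the SLRP median was -0.024.

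Leaving out 1 library moved Fmod between -0.083 (without NC_6) and 0.881 (without NC_10), Prelp between -0.072 and 0.393 (the same libraries), and Podn between -0.394 (without MBZ_11) and 0.674 (without NC_10). Podn also turned without NC_5 (-0.19) or NC_6 (-0.20) and with the muscle covariate (-0.015). In that covariate fit 7 members were above 0 and the SLRP median was 0.56, against 0.41 without it. Dcn stood at 0.91, Lum at 0.85 and Ogn at 0.92, while Aspn fell to 0.19. At an unadjusted p under 0.05, 3 members were higher there, where 5.93% of all tested genes were. Without NC_5, MBZ_11 and MBZ_15 the sign turned for Aspn (-0.33), Podn (-0.64) and the medians of collagens (-0.0030), keratan sulfate synthesis (-0.0087) and proteases (-0.060). With the fibroblast covariate the sign turned for Bgn (-0.0043), Fmod (-0.044), Aspn (-0.48), Prelp (-0.19) and Podn (-0.70). The muscle marker median was -0.070 with its own level as the covariate, and the endothelial median ran from -0.150 (without NC_5) to 0.227 (without NC_10). The cause was not tested. No paired analysis was possible because the columns carry no replicate number. Omd, at 0 to 4 counts, could not be tested at this depth, and Fmod, Ogn and Podn had under 100 counts in every library.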
